A study of Homo sapiens with 6 samples.

Results

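The genes described here encode the ubiquitin E2 conjugating enzymes, the middle step of the cascade that attaches ubiquitin or a related small protein to other proteins. They were taken by symbol from the deposited table of ribosome footprint levels: every gene named UBE2 followed by a letter and at most one number, with UBE2V1, UBE2V2 and UBE2QL1 and without UBE2C. This gave 34 of the 20289 genes of the table. Footprints are the pieces of mRNA left under a ribosome after nuclease digestion, and here they came from RKO, an established human line of colorectal cancer. In 3 libraries the cells carried a short hairpin RNA against TRMT6 (shTRMT6), and in 3 libraries a control hairpin (shControl). TRMT6 is a subunit of the enzyme that methylates an adenosine of cytosolic tRNAs. All 6 libraries come from this one line without a drug or time course in the labels, and the labels do not say how many hairpin sequences or separate cultures were used, so p-values may reflect only technical spread.

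An E1 enzyme activates ubiquitin at the expense of ATP and passes it to a cysteine of an E2. The loaded E2 then meets an E3 ligase, which brings the substrate. RING type ligases let the E2 hand ubiquitin straight to the substrate, while HECT and RBR ligases first take it onto a cysteine of their own. The E2 often decides which lysine of ubiquitin is used for a chain, and with it whether the product is sent to the proteasome or serves as a scaffold for signalling and DNA repair. A few E2 enzymes carry NEDD8 or ISG15 in place of ubiquitin, and UBE2V1 and UBE2V2 lack the cysteine and work as partners of UBE2N.

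The catalytic cysteine sits behind a short conserved stretch, and the coding sequence around it shows how close some of these genes are, which bears on how footprints can be told apart. A search of the GENCODE 29 coding sequences (GRCh38, principal transcripts) for codons of His-Pro-Asn, 7 residues and Cys matched 18 of the 34 genes, a search for Pro-Asn, 7 residues and Cys added UBE2O and UBE2Z, and 14 had no match. The 4 genes of the UBE2D family, the HECT and RBR partner UBE2L3 and the long enzyme UBE2O are shown because the results below turn on them. Each line runs 5′ to 3′ on the coding strand from 33 bases before the cysteine codon to 9 after it, and the capitals mark that codon.
UBE2D1: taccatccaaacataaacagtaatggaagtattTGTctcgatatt
UBE2D2: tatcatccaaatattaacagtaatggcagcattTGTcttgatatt
UBE2D3: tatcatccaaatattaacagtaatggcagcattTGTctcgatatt
UBE2D4: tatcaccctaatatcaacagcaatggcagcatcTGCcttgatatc
UBE2L3: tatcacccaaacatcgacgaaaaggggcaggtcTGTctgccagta
UBE2O: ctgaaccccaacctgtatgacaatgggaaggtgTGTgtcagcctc

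The cysteine is codon 85 in all 4 UBE2D genes, codon 86 in UBE2L3 and codon 1040 in UBE2O. UBE2D2 and UBE2D3 are identical in 44 of these 45 bases, and their coding sequences share a run of 80 identical bases, longer than a footprint. UBE2D1 and UBE2D4 match in 33 of the 45 bases and share no run over 20. Apart from UBE2L5, which shares a run of 76 bases with UBE2L3, no other pair of the set shared a run over 28 bases. Over the 30 tested genes (below), the share of the 28-base windows of a coding sequence that was also found in transcripts of other genes was 100% for UBE2V1, 93.4% for UBE2F, 87.3% for UBE2W, 79.5% for UBE2S, 77.0% for UBE2L3, 62.8% for UBE2D3 and 58.7% for UBE2N. It was 48.7% for UBE2M, 46.1% for UBE2E3 and below 20% for the rest, with 0% for UBE2A, UBE2B, UBE2D1, UBE2E1, UBE2G2, UBE2J1, UBE2J2, UBE2K, UBE2L6, UBE2O, UBE2Q1, UBE2R2, UBE2T and UBE2Z. Counting only genes of the deposited table, the share was 94.9% for UBE2V1, 93.4% for UBE2F, 87.3% for UBE2W, 49.9% for UBE2L3, 24.0% for UBE2N, 12.8% for UBE2D2 and 12.7% for UBE2D3, and under 2% for the rest. How reads shared by several genes were divided is not given in the sources used here, so values of the genes with high shares are less certain.

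The hairpin's target was lower in every shTRMT6 library: TRMT6 had 20.7, 21.9 and 24.1 FPKM (fragments scaled by gene length and library size) in shTRMT6, against 57.6, 58.4 and 95.3 FPKM in shControl (log2 fold change -1.58, SE 0.27, limma adjusted p = 0.00301). The steps between low FPKM values gave an estimated 2591000 to 4082000 reads per shTRMT6 library and 2625000 to 3899000 per shControl library. Pearson's r of log values across genes was 0.959 to 0.963 within shTRMT6, 0.936 to 0.964 within shControl, lowest for the 2 pairs with shControl 3, and 0.865 to 0.923 between groups. EPCAM, KRT8, KRT18 and CDX2 of the epithelial and colon markers were present, CDH1, CDX1, LGALS4 and VIL1 were listed at 0, and the summed level of the 10 markers was 169 to 193 FPKM in shTRMT6 and 165 to 262 in shControl. The 6 blood and immune markers summed to 576 to 757 FPKM in shTRMT6 and 559 to 741 in shControl, nearly all of it from CD68, a lysosomal protein not limited to blood cells, and PTPRC, CD3E and HBB were among those at 0. In every library the 6 fibroblast markers summed to at most 2.89 FPKM and the 4 endothelial markers to at most 0.54.

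Of the 34 E2 genes, 30 passed the filter of at least 1 FPKM in at least 3 libraries, and each of these reached it in all 6. UBE2E2, UBE2QL1 and UBE2U were listed at 0 in every library, and UBE2L5 had 1.87 FPKM in shControl 3 and 0 elsewhere. Footprints of E2 genes were more often lower than higher in shTRMT6. With limma on log2(FPKM + 1) and a Benjamini-Hochberg adjusted p under 0.05 over the 11566 genes tested, 12 E2 genes were lower and 5 higher, and 13 did not pass. Among all genes tested the balance was the other way: 9.04% were lower and 26.5% higher. The median log2 fold change was -0.37 over the 30 E2 genes and 0.39 over all genes tested. The 3 libraries of a group lay wholly below the other 3 for 14 E2 genes and wholly above for 6, while 14.3% of all genes lay below and 37.0% above.

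**Figure D1:**
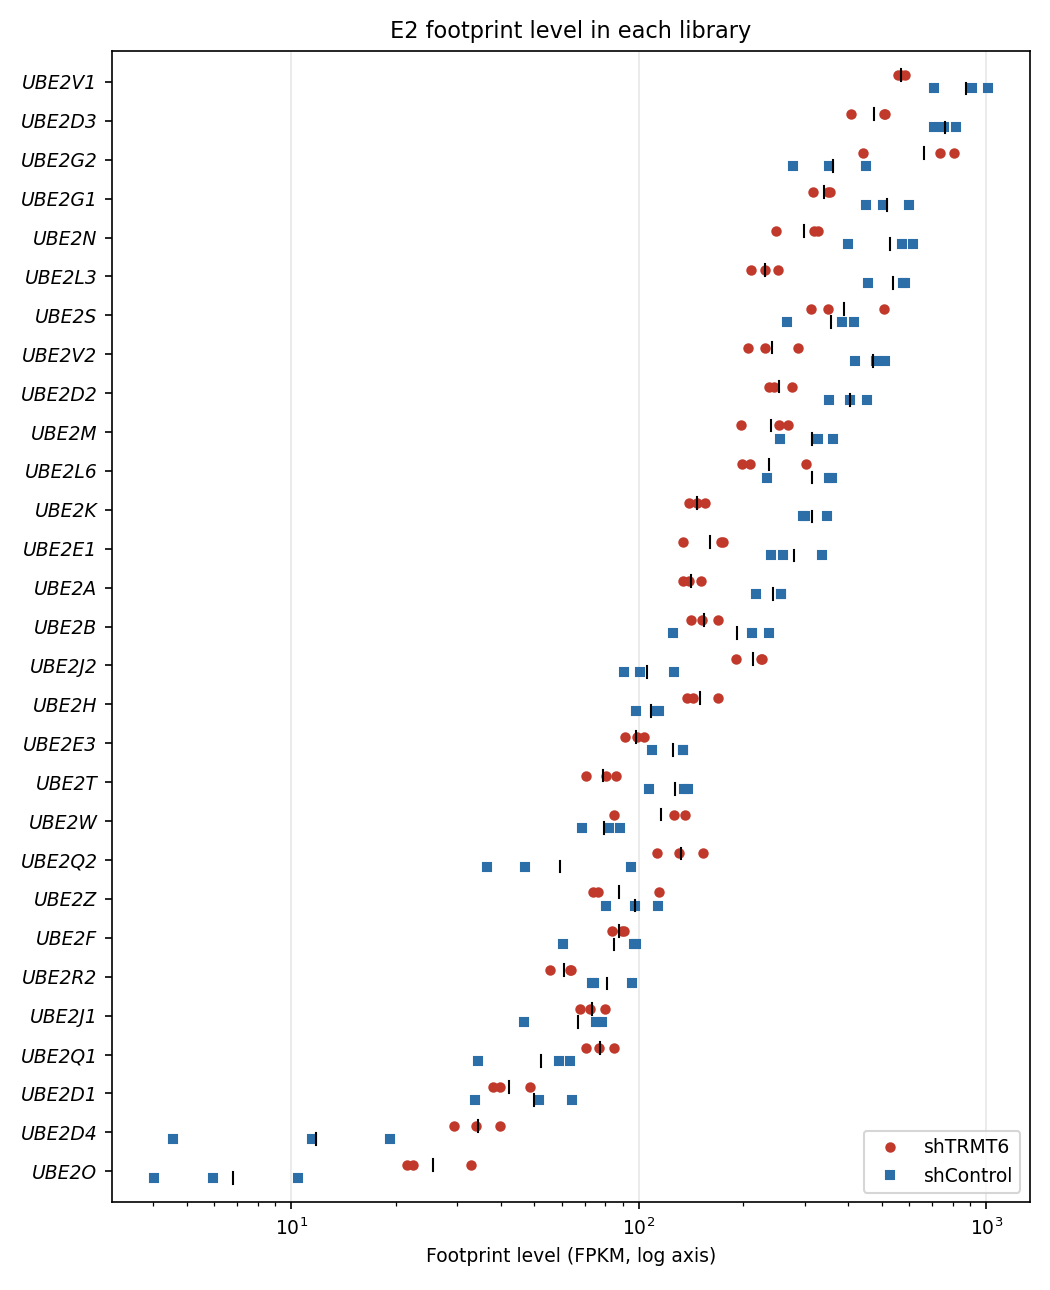
Footprint level in FPKM (log axis) of 29 tested E2 genes in each library, shTRMT6 as circles above shControl as squares, with a black bar at each mean of 3; genes are ordered by mean over 6 libraries, from UBE2V1 down to UBE2O. UBE2L3 and UBE2K show a wide gap with shTRMT6 lower, and UBE2O and UBE2D4 a gap with shTRMT6 higher.

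Summed over all E2 genes the level was 6059 ± 97.4 FPKM in shTRMT6 and 8194 ± 915 FPKM in shControl (SD, n = 3 each), a ratio of 0.739. As a share of each library's FPKM sum this was 0.388% ± 0.00548 in shTRMT6 and 0.495% ± 0.00696 in shControl, a ratio of 0.785. The highest level over the 6 libraries was that of UBE2V1, followed by UBE2D3 and UBE2G2. FPKM is relative to the library, and footprints combine the amount of an mRNA with the ribosomes on it, which these values do not separate. Nor can a change in some cells of a culture be told apart from a smaller one in all.

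How the libraries are scaled moves the balance of calls. Median scaling, which brings the median of all genes to -0.07, left 17 E2 genes lower and 1 higher, against 19.7% and 13.1% of all genes. With the dependence on level and coding length taken out of each library (trends removed, from here on), limma left 5 lower and 4 higher, against 13.6% and 13.4% of all genes, with a median of -0.19 over E2 genes and -0.06 over all genes. Quantile normalization gave 8 lower and 4 higher (14.7% and 13.9% of all genes), and a library sum without mitochondrial and histone genes 8 lower and 7 higher (6.85% and 33.5%). At an adjusted p under 0.01 limma called 4 lower and 2 higher, against 4.09% and 12.3% of all genes, and without the intensity trend 7 and 4, against 7.90% and 26.6%.

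Leaving out a library moved the number of E2 genes called, as it did for all genes. Without shTRMT6 1, 4 were lower and 2 higher, with 5.08% and 16.9% of all genes. Without shTRMT6 2 these were 6 and 4, with 6.29% and 18.0%, and without shTRMT6 3 they were 5 and 3, with 5.18% and 15.8%. Without shControl 1, 4 were lower and 3 higher, with 5.91% and 19.3% of all genes. Without shControl 2 these were 8 and 5, with 8.01% and 27.1%, and without shControl 3, the library least like the others of its group, 15 and 5, with 12.3% and 28.3%. UBE2L3, UBE2K and UBE2V2 were among the genes that stayed lower in all 15 other fits, which include leaving out each library, and no gene stayed higher in all of them.

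**Figure D2:**
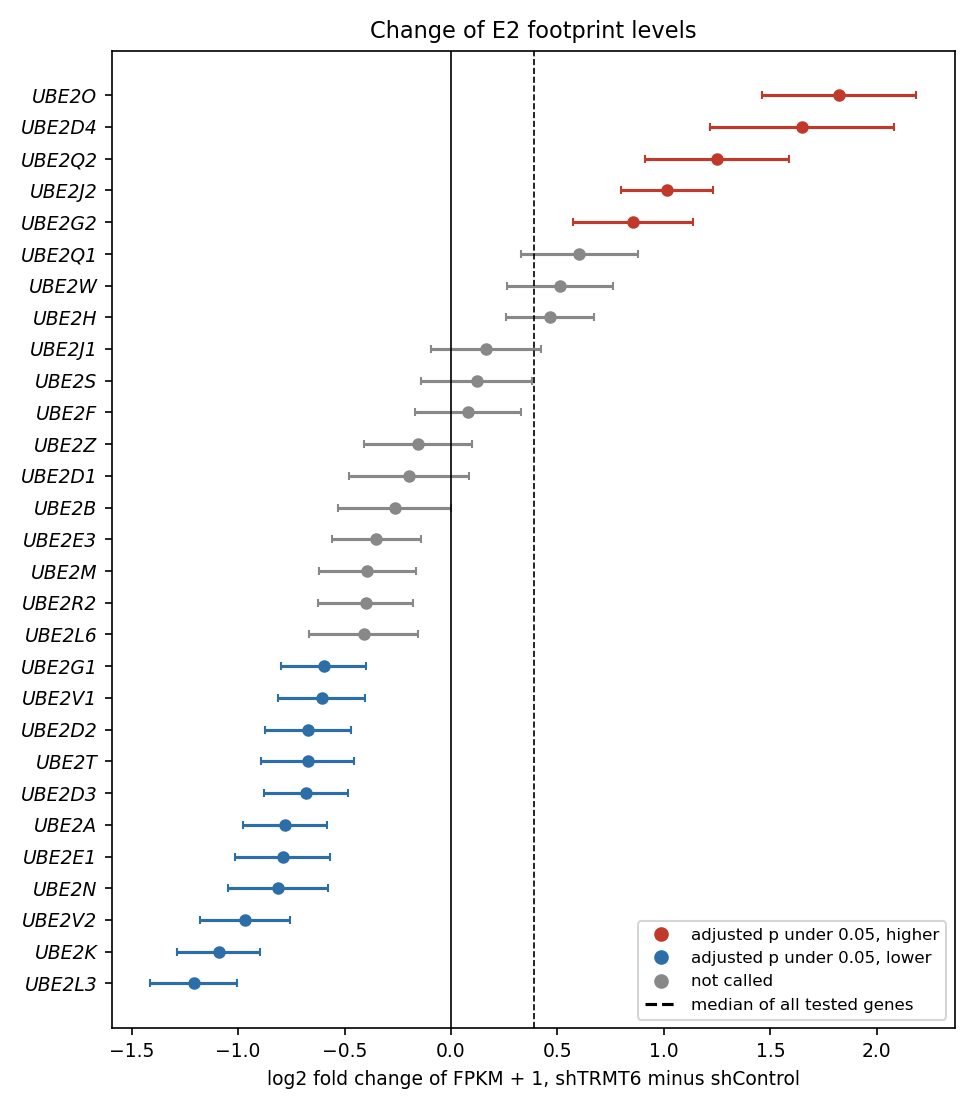
Log2 fold change of FPKM + 1, shTRMT6 minus shControl, of 29 tested E2 genes, with the standard error from limma as bars; colours mark adjusted p under 0.05, and the dashed line is the median of all tested genes at 0.39. The genes run from UBE2L3 at -1.21 at the bottom to UBE2O at 1.82 at the top, and the 11 lower genes shown lie at -0.60 or below.

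The E2 enzymes for NEDD8, ISG15 and FAT10 did not pass the test. UBE2M, which loads NEDD8 onto cullins with RBX1, had 253, 269 and 197 FPKM in shTRMT6, against 328, 362 and 255 in shControl (log2 fold change -0.39, limma adjusted p = 0.199), and the groups overlapped. UBE2F, the NEDD8 enzyme that works with RNF7 on CUL5, had 83.8, 89.5 and 90.6 FPKM in shTRMT6 and 96.8, 98.0 and 60.7 in shControl (0.08, limma adjusted p = 0.824), while the readthrough gene UBE2F-SCLY was listed at 12.8 FPKM in shTRMT6 2, at 10.6 in shControl 2 and at 0 elsewhere. The ISG15 enzyme UBE2L6 had 199, 302 and 209 FPKM in shTRMT6 and 353, 359 and 233 in shControl (-0.41, limma adjusted p = 0.236). For these genes the 2 groups of values overlap, and they do so only through shControl 3, which lies low. Without shControl 3, limma called UBE2M (-0.54, adjusted p = 0.0437) and UBE2L6 (-0.61, adjusted p = 0.0450) lower, and both were also called with median scaling (-0.89 and -0.90). UBE2Z, which takes ubiquitin or FAT10 from the E1 enzyme UBA6, had 114, 73.6 and 76.4 FPKM in shTRMT6 and 114, 80.2 and 97.8 in shControl (-0.16, SE 0.25).

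UBE2L3, grouped here as a partner of HECT and RBR ligases, was lower. UBE2L3 (ENSG00000185651, plus strand of chromosome 22, 21549447 to 21624034) had 211, 232 and 252 FPKM in shTRMT6, against 576, 583 and 456 FPKM in shControl. The highest shTRMT6 library lay well below the lowest shControl library. The log2 fold change was -1.21 (SE 0.20, limma adjusted p = 0.00285), with -1.70 under median scaling and -0.86 with trends removed.

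UBE2K, UBE2G1 and UBE2R2, grouped here as enzymes that extend K48-linked chains, the usual signal for the proteasome, lay lower in each shTRMT6 library than in any shControl library, and 2 of the 3 passed. Of all genes tested, 14.3% lay lower without overlap and 9.04% were called lower. These 3 are not the only enzymes of K48-linked chains, and CDC34 and UBE2G2 are given further on. UBE2K (ENSG00000078140, plus strand of chromosome 4, 39698044 to 39782792), which builds such chains and holds a ubiquitin-binding UBA domain, had 155, 147 and 140 FPKM in shTRMT6, against 301, 348 and 297 FPKM in shControl. Its levels were tight in both groups and lay far apart. The log2 fold change was -1.09 (SE 0.19, limma adjusted p = 0.00361).

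UBE2G1 (ENSG00000132388, minus strand of chromosome 17, 4269259 to 4366628), which acts with CRL4 ligases, had 317, 350 and 355 FPKM in shTRMT6, against 601, 506 and 452 FPKM in shControl. The shControl libraries varied more, yet none came down to the shTRMT6 range. The log2 fold change of -0.60 (SE 0.20, limma adjusted p = 0.0422) was near the threshold and was lost when any library other than shControl 3 was left out, over a range of -0.69 to -0.49, and with quantile normalization (-0.32), the sum without mitochondrial and histone genes (-0.42), trends removed (-0.21) or no intensity trend. UBE2R2, a paralog of CDC34 that serves SCF ligases, had 63.5, 55.5 and 63.8 FPKM in shTRMT6 and 74.6, 73.3 and 95.7 in shControl (-0.40, limma adjusted p = 0.185), without overlap. With median scaling (-0.89) and quantile normalization (-0.68) UBE2R2 was called lower.

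All 3 members of the K63 chain complex were lower, as were 9.04% of all genes tested. UBE2N makes K63-linked chains, which serve in NF-kappaB signalling and DNA damage tolerance, as a pair with UBE2V1 or UBE2V2. UBE2N (ENSG00000177889, minus strand of chromosome 12, 93405673 to 93442262) had 328, 318 and 248 FPKM in shTRMT6, against 614, 573 and 400 FPKM in shControl (log2 fold change -0.81, SE 0.24, limma adjusted p = 0.0244). UBE2V1 (ENSG00000244687, minus strand of chromosome 20, 50081124 to 50115959) had 582, 567 and 556 FPKM in shTRMT6, against 1012, 908 and 708 FPKM in shControl (-0.61, SE 0.21, limma adjusted p = 0.0439). UBE2V2 (ENSG00000169139, plus strand of chromosome 8, 48008400 to 48064708) had 230, 288 and 207 FPKM in shTRMT6, against 482, 512 and 419 FPKM in shControl (-0.97, SE 0.21, limma adjusted p = 0.00787). In each of these genes shTRMT6 lay below shControl without overlap, as in 14.3% of all genes, and shControl 3 was the lowest shControl library.

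Summed over the 3 genes the K63 group stood at 1108 ± 86.3 FPKM in shTRMT6 and 1876 ± 308 FPKM in shControl (SD, n = 3 each). UBE2V2 kept its call in each other fit. UBE2N and UBE2V1 lost theirs when any library other than shControl 3 was left out, with weakest values of -0.68 and -0.50, and also with quantile normalization (-0.55 and -0.25) or trends removed (-0.45 and -0.17), and UBE2V1 also with the sum without mitochondrial and histone genes (-0.43) and without the intensity trend. The readthrough gene PEDS1-UBE2V1 was listed at 0 in every library, while PEDS1, its upstream part, was higher (log2 fold change 0.93, limma adjusted p = 0.0244), named after its values were seen.

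The UBE2D family, broadly acting enzymes that work with many RING ligases, split by member. UBE2D3 (ENSG00000109332, minus strand of chromosome 4, 102794383 to 102868896) had 510, 409 and 508 FPKM in shTRMT6, against 821, 706 and 755 FPKM in shControl (log2 fold change -0.68, SE 0.20, limma adjusted p = 0.0246). UBE2D2 (ENSG00000131508, plus strand of chromosome 5, 139526431 to 139628433) had 245, 275 and 237 FPKM in shTRMT6, against 454, 406 and 352 FPKM in shControl (-0.67, SE 0.20, limma adjusted p = 0.0272). Both genes, whose windows above differ in a single base, were lower without overlap. UBE2D1 had 39.8, 38.1 and 48.7 FPKM in shTRMT6, inside the 33.9, 64.1 and 51.5 of shControl (-0.20, SE 0.28, limma adjusted p = 0.614).

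UBE2D4 (ENSG00000078967, plus strand of chromosome 7, 43926438 to 43956136) went the other way, with 40.0, 33.9 and 29.4 FPKM in shTRMT6, against 19.2, 11.5 and 4.58 FPKM in shControl. The groups did not overlap, but the lowest library rests on an estimated 7.87 reads and the highest on 61.0. The log2 fold change was 1.65 (SE 0.43, limma adjusted p = 0.0164). It was 1.18 with median scaling, 1.08 with quantile normalization, 1.54 without shTRMT6 1 and 1.65 without shTRMT6 2, and missed the threshold in these. UBE2D4 made up 4.28% ± 0.635 of the family's summed FPKM in shTRMT6 and 0.936% ± 0.528 in shControl (SD, n = 3 each), while UBE2D3 made up 59.0% ± 4.24 and 62.0% ± 2.76. An exon of POLR2J4 overlaps UBE2D4 on the other strand.

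The calls of UBE2D2 and UBE2D3 were fragile. UBE2D2 lost its call when any library other than shControl 3 was left out (-0.77 to -0.58), and UBE2D3 when shControl 1 or any shTRMT6 library was (-0.73 to -0.57). Both were lost with quantile normalization (-0.46 for UBE2D2 and -0.36 for UBE2D3) with trends removed (-0.35 and -0.26) and without the intensity trend, and UBE2D3 also with the sum without mitochondrial and histone genes (-0.50).

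In the UBE2E family, related enzymes with an added N-terminal stretch, UBE2E1 was lower and UBE2E3 did not pass. UBE2E1 (ENSG00000170142, plus strand of chromosome 3, 23805903 to 23891316) had 172, 174 and 134 FPKM in shTRMT6, against 337, 240 and 261 FPKM in shControl (log2 fold change -0.79, SE 0.22, limma adjusted p = 0.0223). UBE2E3 had 98.9, 104 and 91.2 FPKM in shTRMT6, against 134, 134 and 109 FPKM in shControl (-0.35, SE 0.21, limma adjusted p = 0.211). In both the 3 shTRMT6 libraries lay below the 3 of shControl. UBE2E1 was not called without shControl 1, shTRMT6 1 or shTRMT6 3 (-0.89 to -0.65 over all omissions) or with trends removed (-0.53), and UBE2E3 was called with median scaling (-0.84).

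UBE2A and UBE2B, the human counterparts of yeast RAD6, ubiquitinate histone H2B and the replication clamp PCNA. UBE2A (ENSG00000077721, plus strand of chromosome X, 119574467 to 119591083) had 134, 140 and 151 FPKM in shTRMT6, against 256, 257 and 218 FPKM in shControl (log2 fold change -0.78, SE 0.20, limma adjusted p = 0.0145). UBE2B had 142, 152 and 169 FPKM in shTRMT6, against 212, 237 and 126 FPKM in shControl (-0.26, SE 0.27, limma adjusted p = 0.462). UBE2A did not overlap between groups, and UBE2B overlapped through shControl 3. UBE2A was not called without shControl 1 (-0.74) or shTRMT6 1 (-0.74) and passed in every other fit, while UBE2B was called without shControl 3 (-0.54, limma adjusted p = 0.0282) and with median scaling (-0.76).

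UBE2T (ENSG00000077152, minus strand of chromosome 1, 202331657 to 202341980), which with FANCL monoubiquitinates FANCD2 and FANCI in DNA crosslink repair, was also lower. It had 80.3, 70.4 and 86.0 FPKM in shTRMT6, against 138, 107 and 135 FPKM in shControl, without overlap (log2 fold change -0.67, SE 0.22, limma adjusted p = 0.0372). The call was lost without shControl 1 or any shTRMT6 library (-0.79 to -0.59 over all omissions), with the sum without mitochondrial and histone genes (-0.50), with trends removed (-0.60) and without the intensity trend.

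Among the enzymes of ER-associated degradation, which send misfolded proteins of the endoplasmic reticulum to the proteasome, 2 of 3 were higher. Of all genes tested 26.5% were higher, so a count over 3 genes says little about the pathway. UBE2J2 (ENSG00000160087, minus strand of chromosome 1, 1253909 to 1273885), anchored in the ER membrane, had 190, 224 and 226 FPKM in shTRMT6, against 90.9, 126 and 101 FPKM in shControl. The groups were wide apart (log2 fold change 1.01, SE 0.22, limma adjusted p = 0.00732). Its other anchored relative, UBE2J1, had 79.9, 67.8 and 72.6 FPKM in shTRMT6 and 78.4, 75.4 and 46.8 in shControl (0.17, SE 0.26, limma adjusted p = 0.640). With median scaling UBE2J2 stood at 0.52 and missed the threshold (adjusted p = 0.0819), and it passed when any library was left out.

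UBE2G2 (ENSG00000184787, minus strand of chromosome 21, 44768580 to 44802019), a soluble enzyme of the same pathway, had 734, 443 and 808 FPKM in shTRMT6, against 353, 452 and 278 FPKM in shControl. Here the groups overlapped, since shTRMT6 2 lay just under shControl 2. The log2 fold change was 0.85 (SE 0.28, limma adjusted p = 0.0403), and it missed the threshold without shControl 1 (0.85), shControl 3 (0.68), shTRMT6 1 (0.76) or shTRMT6 3 (0.69), with median scaling (0.36), with no filter on low values and without the intensity trend.

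Of the larger enzymes, UBE2O and UBE2Q2 were higher, as were 26.5% of all genes tested. UBE2O (ENSG00000175931, minus strand of chromosome 17, 76389451 to 76453206), which joins E2 and E3 activity in one chain and in maturing red cells of mice marks ribosomal proteins for removal, had 32.8, 22.4 and 21.5 FPKM in shTRMT6, against 4.02, 5.96 and 10.5 FPKM in shControl. No shControl library reached the level of any shTRMT6 library, and a library held an estimated 50.8 to 354 reads of the gene. The log2 fold change was 1.82 (SE 0.36, limma adjusted p = 0.00548), a ratio of means of 3.75. UBE2O is also the longest gene of the set, with 3876 coding nt, and with trends removed its value was 0.96 and missed the threshold (adjusted p = 0.0573).

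UBE2Q2 (ENSG00000140367, plus strand of chromosome 15, 75843285 to 75901078) had 153, 113 and 131 FPKM in shTRMT6, against 47.0, 94.8 and 36.5 FPKM in shControl (log2 fold change 1.25, SE 0.34, limma adjusted p = 0.0188). UBE2Q1 had 76.8, 70.6 and 85.0 FPKM in shTRMT6, against 58.8, 63.4 and 34.5 FPKM in shControl (0.60, SE 0.27, limma adjusted p = 0.113). Both related genes lay higher without overlap, as did 37.0% of all genes, and UBE2Q2 passed the test. UBE2Q2 was not called without shControl 1 (1.14), shTRMT6 1 (1.14) or shTRMT6 3 (1.25) or with median scaling (0.76), and UBE2Q1 was called with the sum without mitochondrial and histone genes (0.78).

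The other enzymes did not pass. UBE2H, which works with the CTLH ligase, had 169, 138 and 143 FPKM in shTRMT6, against 112, 98.5 and 114 FPKM in shControl, without overlap (log2 fold change 0.47, limma adjusted p = 0.104), and was called without shControl 3 (0.51) and with the sum without mitochondrial and histone genes (0.64). UBE2W, which puts ubiquitin on protein N termini, had 136, 84.8 and 126 FPKM in shTRMT6 and 88.3, 82.0 and 68.4 in shControl (0.51, SE 0.25, limma adjusted p = 0.135). UBE2S, which extends K11-linked chains with the anaphase-promoting complex, had 349, 507 and 313 FPKM in shTRMT6 and 417, 385 and 267 in shControl (0.12, SE 0.26, limma adjusted p = 0.741). The groups of UBE2W and UBE2S overlapped.

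**Figure D3:**
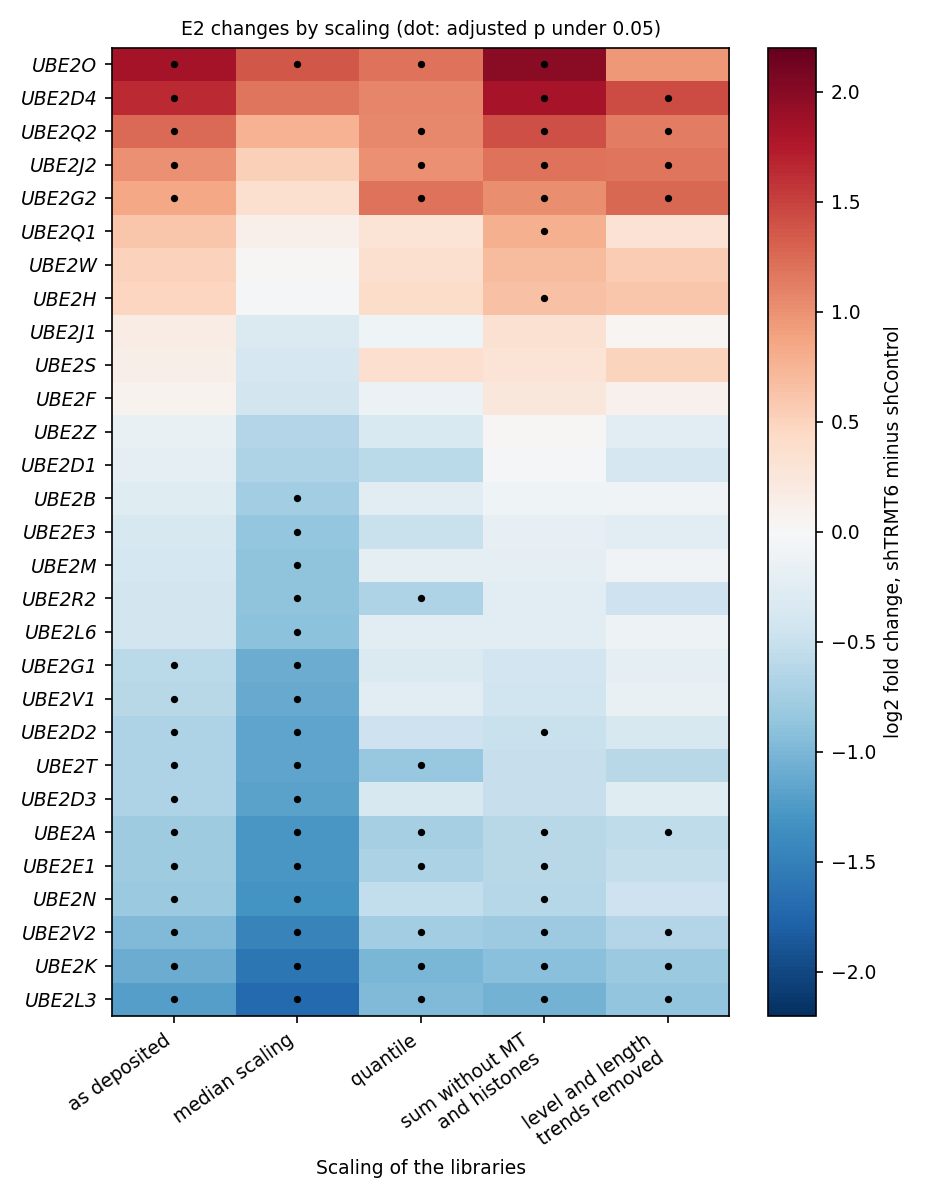
Log2 fold change, shTRMT6 minus shControl, of 29 tested E2 genes (one line each, highest at the top) under 5 scalings of the libraries, with a dot where the limma adjusted p was under 0.05. UBE2L3, UBE2K, UBE2V2 and UBE2A carry a dot under all 5, and median scaling leaves a single dot among the genes that are higher, at UBE2O.

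A common factor on all genes of a library cancels in the ratio of related genes within it, apart from the 1 added to each FPKM. Quantile normalization and the removal of trends are not such factors and can move these ratios. For 14 pairs of related or joined genes with a value, log2 ratios of FPKM + 1 were compared between groups by two-sided exact permutation, where 3 against 3 allows no p under 0.1. In 8 of the 14 the 2 groups did not overlap, and for single genes this share was 51.4%. Each of these 8 reached p = 0.1 (exact permutation), 0.175 adjusted over the 14 pairs, so none passed.

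The ratio of UBE2G1 to UBE2G2 was -1.21, -0.34 and -1.19 on the log2 scale in shTRMT6 libraries, against 0.77, 0.16 and 0.70 in shControl libraries, a difference of -1.45. UBE2G2 thus had the more footprints per length in every shTRMT6 library and UBE2G1 in every shControl library. The ratio of UBE2L3 to UBE2L6 was 0.08, -0.38 and 0.27 in shTRMT6, against 0.71, 0.70 and 0.96 in shControl, a difference of -0.80. UBE2D1 over UBE2D4 stood at -0.01, 0.16 and 0.71 in shTRMT6, against 0.79, 2.38 and 3.23 in shControl, a difference of -1.84. The remaining non-overlapping pairs differed by -0.85 (UBE2J1 over UBE2J2), -0.64 (UBE2Q1 over UBE2Q2), -0.51 (UBE2A over UBE2B), -0.47 (UBE2M over UBE2F) and -0.44 (UBE2E1 over UBE2E3).

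The ratio of UBE2D2 to UBE2D3 averaged -0.91 ± 0.29 in shTRMT6 and -0.92 ± 0.16 in shControl (SD, n = 3 each), a difference of 0.01. For the K63 complex, UBE2N over UBE2V1 differed by -0.20, UBE2N over UBE2V2 by 0.16 and UBE2V1 over UBE2V2 by 0.36, all with overlap. UBE2D1 over UBE2D2 (0.48) and over UBE2D3 (0.48) also overlapped.

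**Figure D4:**
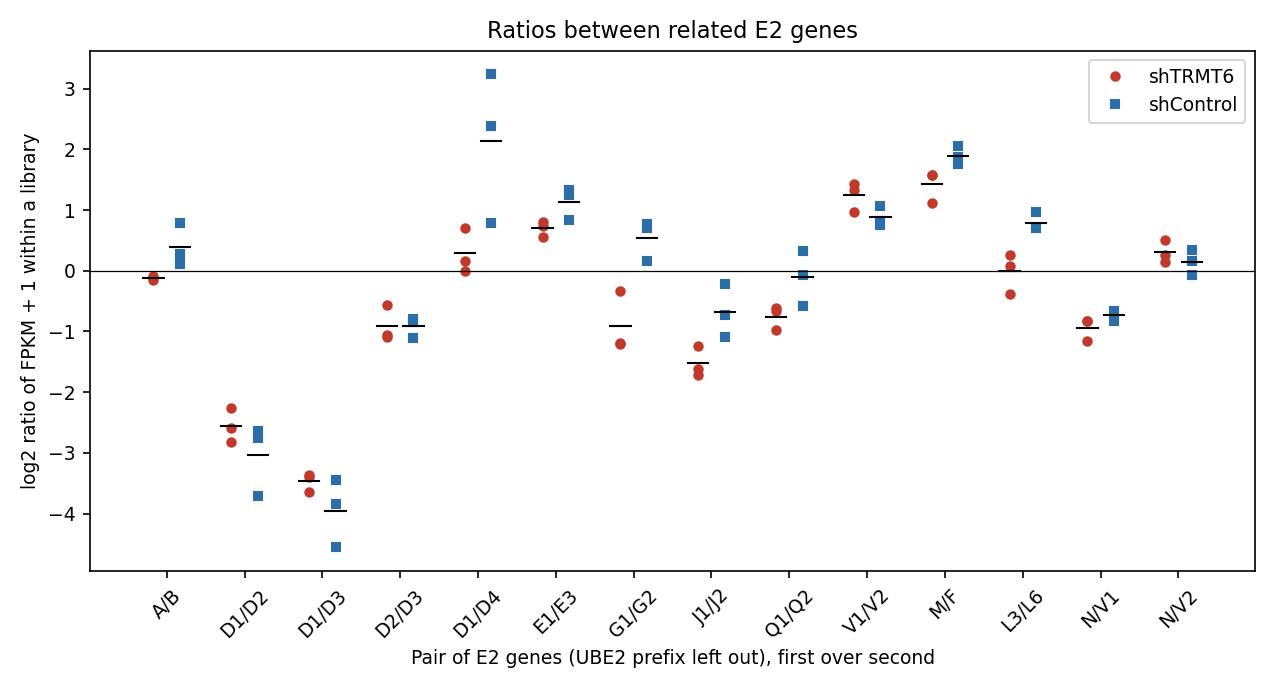
Log2 ratio of FPKM + 1 between the genes of 14 pairs within each library, shTRMT6 as circles left of shControl as squares, with a black bar at each mean of 3. The G1/G2 pair lies below 0 in all shTRMT6 libraries and above 0 in all shControl libraries, and the D2/D3 pair has nearly the same mean in both groups.

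Coding length and level moved with the changes, in this set and across the table. Spearman's rho of the log2 fold change with coding length was 0.458 over the 30 E2 genes and 0.357 over 11501 genes, and with mean level -0.602 and -0.338. E2 genes are mostly short: for the 20 with under 600 coding nt the median log2 fold change was -0.60, against -0.11 over the 1628 genes of that length. The 4 E2 genes of 900 to 1500 nt had a median of 0.38, against 0.28 over 3162 genes, and UBE2O, the only one over 1500 nt, had 1.82, against a median of 0.69 over 5083 genes. With GC content of the coding sequence rho was 0.350 over the E2 genes and 0.102 over 11397 genes. All these values share the same 6 libraries, and the part of length, level and GC in the changes was not tested beyond the fit with trends removed.

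**Figure D5:**
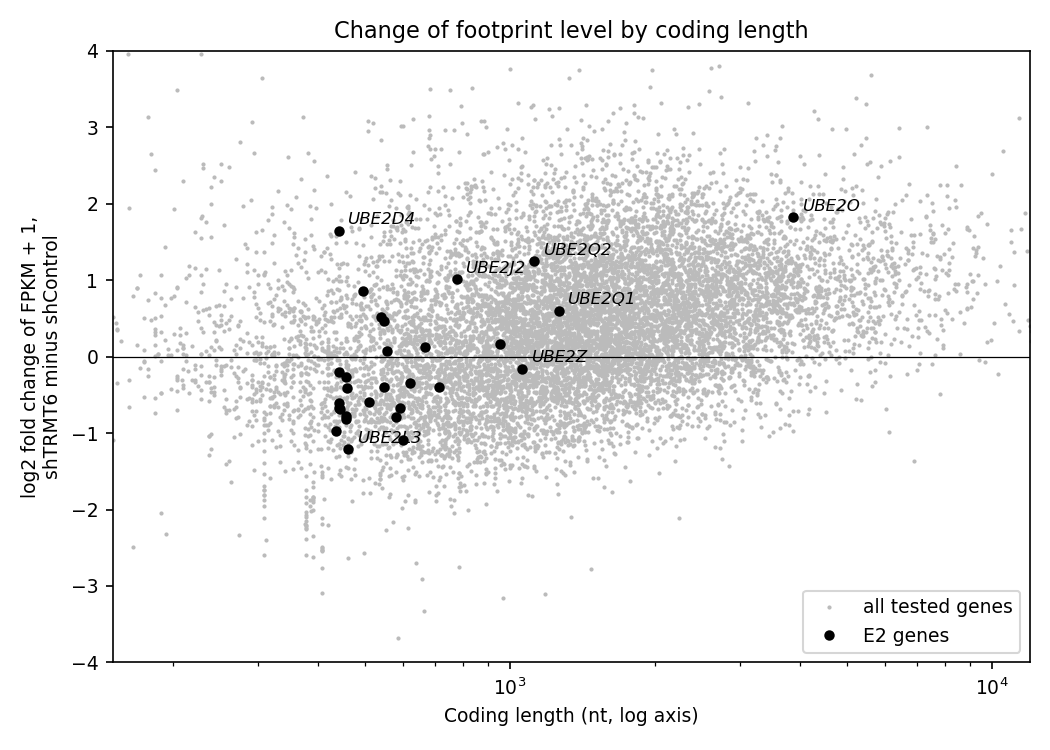
Log2 fold change of FPKM + 1, shTRMT6 minus shControl, by coding length in nt (log axis) for all tested genes with a length (grey) and 29 E2 genes (black), with 63 of 11501 genes outside the axes. Grey points drift upward with length, and the E2 genes run from UBE2L3 among the short ones to UBE2O, the longest.

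The proteins that E2 enzymes carry and the E1 enzymes that load them were described from lists of the pathway. Of the 4 ubiquitin genes, 3 were lower and 0 higher, against 9.04% and 26.5% of all genes. With trends removed or quantile normalization 0 were lower and 1 higher. The shares of all genes were then 13.6% and 13.4% with trends removed, and 14.7% and 13.9% with quantile normalization. Only 1 was lower without shTRMT6 1, shTRMT6 3 or shControl 1, against 5.08%, 5.18% and 5.91% of all genes. RPS27A, which encodes ubiquitin fused to a ribosomal protein, had 2103, 2400 and 2523 FPKM in shTRMT6, against 4024, 5991 and 5221 FPKM in shControl (log2 fold change -1.10, limma adjusted p = 0.00570). UBB, which encodes ubiquitin repeats, was at -0.76 (adjusted p = 0.0380), also without overlap.

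Of 10 tested genes for ubiquitin-like proteins, 3 were lower and 0 higher, against 9.04% and 26.5% of all genes. With trends removed 2 were lower and 2 higher, against 13.6% and 13.4%. The lower count was 1 without shTRMT6 1, shTRMT6 3, shControl 1 or shControl 2, against 5.08% to 8.01% of all genes. It was 1 with quantile normalization (14.7% of all genes). It reached 6 without shControl 3 (12.3%) or with median scaling (19.7%). SUMO2, a member of the SUMO family, had 2034, 2185 and 2108 FPKM in shTRMT6, against 4938, 4458 and 2774 FPKM in shControl (log2 fold change -0.90, limma adjusted p = 0.0201). FAU, a ubiquitin-like protein fused to a ribosomal protein, was at -1.20 (adjusted p = 0.00606) and ISG15 at -0.70 (adjusted p = 0.0451). Of 9 tested E1 genes 3 were lower and 0 higher, against 9.04% and 26.5% of all genes. Under the other 4 scalings 2 to 4 were lower and 0 higher, against 6.85% to 19.7% and 13.1% to 33.5% of all genes. Without shControl 1 or any shTRMT6 library 1 was lower, against 5.08% to 6.29%. The E1 genes of ubiquitin itself, UBA1 (-0.14, limma adjusted p = 0.843) and UBA6 (0.36, limma adjusted p = 0.321), did not pass. SAE1, a subunit of the SUMO E1, had 210, 225 and 181 FPKM in shTRMT6, against 449, 434 and 441 FPKM in shControl (-1.11, limma adjusted p = 0.00335), while UBA2, its catalytic partner, did not pass (0.49, adjusted p = 0.154). NAE1, a subunit of the NEDD8 E1, was at -0.72 (adjusted p = 0.0289), its partner UBA3 at -0.40 (adjusted p = 0.229), and MOCS3, the E1 of URM1, at -0.91 (adjusted p = 0.0247).

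Of 7 E2 and E2-like genes outside the UBE2 symbols, BIRC6, a giant E2 that inhibits apoptosis, was higher (log2 fold change 0.88, limma adjusted p = 0.0449) and UFC1, the enzyme of UFM1, lower (-0.66, adjusted p = 0.0305). That is 1 of 7 in each direction, against 26.5% of all genes higher and 9.04% lower. CDC34, the paralog of UBE2R2, had 173, 186 and 149 FPKM in shTRMT6 and 167, 176 and 142 in shControl (0.06, SE 0.21). The calls of BIRC6 and UFC1 were fragile. BIRC6 was not called when any single library was left out, with no filter, median scaling, quantile normalization or trends removed. UFC1 was not called when any library other than shControl 3 was left out, without the intensity trend or with trends removed.

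Of 29 genes for the core of cullin-RING ligases and neddylation, 5 were higher and 8 lower, against 26.5% and 9.04% of all genes, and with trends removed 4 were higher and 11 lower, against 13.4% and 13.6%. Without shTRMT6 1, 2 or 3 the lower count was 2, 4 and 3, against 5.08%, 6.29% and 5.18% of all genes. Without shControl 1 the lower count was 4, against 5.91%. Over all omissions 4 to 6 were higher, against 15.8% to 28.3%. DCUN1D5, which helps NEDD8 onto cullins, had 107, 161 and 108 FPKM in shTRMT6, against 362, 428 and 492 FPKM in shControl (log2 fold change -1.78, limma adjusted p = 0.00131). SKP1, the adaptor of SCF ligases, had 639, 681 and 656 FPKM in shTRMT6, against 1390, 1367 and 1446 FPKM in shControl (-1.09, adjusted p = 0.00281). ELOC, an adaptor of CUL2 and CUL5, was at -0.83 (adjusted p = 0.0118) and COPS7A, a subunit of the COP9 signalosome that removes NEDD8, at -0.96 (adjusted p = 0.0129). On the higher side were the cullins CUL7 (2.02, adjusted p = 0.00416) and CUL9 (1.60, adjusted p = 0.00995) and the DCUN1D5 relatives DCUN1D4 (1.44, adjusted p = 0.00426) and DCUN1D2 (1.64, adjusted p = 0.00900). The 2 cullins lay near the filter in shControl, CUL7 at 0.80, 2.42 and 2.88 FPKM and CUL9 at 0.96, 1.70 and 1.86 FPKM. Their lowest libraries rest on an estimated 13.3 and 23.6 reads, and both are long, with 5094 and 7551 coding nt.

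Of 37 tested E3 ligase genes listed as partners of E2 enzymes, 8 were higher and 0 lower, against 26.5% and 9.04% of all genes. Higher calls were thus no more common here than in the table. The median log2 fold change was 0.51, against 0.39 over all genes. Without single libraries 3 (shTRMT6 3) to 12 (shControl 3) were higher, against 15.8% and 28.3% of all genes. In these omissions 0 or 1 were lower, against 5.08% to 12.3%. UBE3A, a HECT ligase that works with UBE2L3, had 306, 196 and 236 FPKM in shTRMT6, against 56.4, 65.3 and 55.9 FPKM in shControl (log2 fold change 2.02, limma adjusted p = 0.000832). ARIH2, an RBR ligase that binds neddylated CUL5, was at 1.43 (adjusted p = 0.00419) and RNF8, a RING ligase that recruits UBE2N at DNA breaks, at 0.86 (adjusted p = 0.0158). The groups of these 3 ligases were apart. With median scaling 3 of the 37 were higher and 4 lower, against 13.1% and 19.7% of all genes. With trends removed 4 were higher and 2 lower, against 13.4% and 13.6%.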

How the data were processed

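Ribosome footprints of RKO cells were measured in 3 shTRMT6 and 3 shControl libraries; per the labels' protocols, lysate was treated with RNase I and fragments above 17 nt were kept. The authors deposited FPKM per gene, per the file headers; fastp, STAR and RSEM appear in the submitters' processing notes, with no version. Not given in the sources used here are the genome build, the annotation, the strand setting and the treatment of shared reads. Columns named SH and NC were read as shTRMT6 and shControl, which no label spells out; 0 value columns were left unassigned.

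Symbols were found for 19705 of 20289 Ensembl identifiers, and positions and coding lengths for 20171 in GENCODE 29 (GRCh38), which may differ from the authors' annotation. Low FPKM values times coding length fell within 0.1 of a whole read for 69.2% to 75.6% of those used, so reads are estimates and no count model was fitted. limma 3.58.1 (R 4.3.3) took log2(FPKM + 1) and a single group term, with an intensity trend in eBayes and Benjamini-Hochberg adjustment over the 11566 genes that reached 1 FPKM in 3 or more libraries; fold changes on this scale understate those of low genes. The threshold was an adjusted p of 0.05. The fit was tested on simulated data. Alternatives were median scaling, quantile normalization, a library sum without mitochondrial and histone genes, spline removal (5 degrees of freedom) of trends with level and length, no filter, a minimum mean of 5 FPKM, no intensity trend, 0.1 as the pseudocount, replicate number as a block, thresholds of 0.01 and 0.1, and leaving out each library.

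The members, gene lists, pairs and tests were chosen with earlier results of these data known. The E2 genes are named, and some genes are not reported here though counts, sums and medians hold them; from each pathway list, up to 4 genes with the smallest p in each direction among those past the threshold, and any other was named after its values were seen. Python 3.11.15 was used with scipy 1.17.1, pandas 2.3.3, numpy 2.4.6 and matplotlib 3.10.9.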

Additional observations from a re-analysis of the deposited data

How the results depend on the processing

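Neither TRMT6 nor any of the 30 tested E2 genes changed direction past the threshold under any alternative. Counts of the pathway lists could turn. The ubiquitin genes went from 3 lower and 0 higher to 0 lower and 1 higher with quantile normalization or trends removed. Of all genes, 14.7% were lower and 13.9% higher with quantile normalization, and 13.6% and 13.4% with trends removed. With median scaling the E3 ligase genes went from 8 higher and 0 lower to 3 higher and 4 lower. The shares of all genes moved the same way, from 26.5% higher and 9.04% lower to 13.1% and 19.7%. The count of E2 genes higher in shTRMT6, 5 as reported, was 1 with median scaling and 2 at an adjusted p under 0.01, and 2 to 5 when single libraries were left out. The count lower, 12 as reported, was 5 with trends removed, 7 without an intensity trend, 4 at 0.01, and 4 to 15 when single libraries were left out. Over the 6 pathway lists, with 4, 10, 9, 7, 29 and 37 genes tested, 14 were higher and 18 lower, against 26.5% and 9.04% of all genes. Median scaling gave 7 higher and 34 lower, against 13.1% and 19.7%. At 0.01 these were 7 and 5, against 12.3% and 4.09%. Without single libraries 7 to 18 were higher, against 15.8% to 28.3% of all genes, and 5 to 23 lower, against 5.08% to 12.3%. The count of pairs without overlap was 8 to 10. Samples of the same number did not deviate together, with correlations of 0.012, 0.013 and 0.102, so the replicate numbers do not pair them; with the replicate block 5 E2 genes were higher and 11 lower, UBE2G1 being lost, against 27.2% and 9.21% of all genes. Of the 30 E2 genes, 21 stayed on the same side of the threshold with median scaling, 5 gained a call and 4 lost it. TRMT6 stayed lower in each alternative. FPKM carries no depth, and UBE2D4, with an estimated 7.87 to 61.0, rests on the fewest reads.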
